A study of Mus musculus with 6 samples.

Results

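The 10 genes here encode serum response factor (SRF), its partner proteins and Krüppel-like factors (KLFs), among them KLF4, which opposes SRF in smooth muscle. They were taken by symbol from the 18112 genes of the expression table: Srf, Myocd, Mkl1, Mkl2, Elk1, Elk3, Elk4, Klf2, Klf4 and Klf5, where Mkl1 and Mkl2 are the older symbols of Mrtfa and Mrtfb. All 10 symbols were found, each in 1 row of the table.

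The RNA came from primary vascular smooth muscle cells (VSMCs) that were grown from the medial layer of the aorta of C57BL/6 mice. Control cells were Smyd2 fl/fl (labelled Flox), in which both copies of the lysine methyltransferase gene Smyd2 carry loxP sites but remain intact. The other cells were Smyd2 SMC-/- (labelled SMYD2 KO), which carry the same floxed alleles and a Cre recombinase driven by the SM22α (Tagln) promoter, a promoter that is active in smooth muscle and also in some other cell types. Each genotype had 3 RNA-seq libraries, numbered 1 to 3, with young adult littermates as the source of the controls. The labels describe growth in serum with a Promega extraction kit, whereas the methods of the study describe cells of an earlier passage that were starved overnight and extracted with TRIzol, so whether the cells had serum at harvest is not settled. The comparison asks how the RNA of SRF and its partners differs when SMYD2 is lost.

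SRF is a widely expressed transcription factor that binds a short DNA element, the CArG box, and has little activity without partners. Myocardin and the related proteins MRTF-A and MRTF-B drive contractile and cytoskeletal genes through SRF, and the MRTFs are held in the cytoplasm by monomeric actin. The ternary complex factors ELK1, ELK3 and ELK4 bind SRF in competition with the myocardin family and link it to ERK signalling and immediate early genes, while KLF4 represses contractile genes in cultured smooth muscle.

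Values are FPKM, which scales the fragments counted for a gene by transcript length and by library size. Where 3 values are listed for a genotype, they stand in the order of replicates 1, 2 and 3. From the steps between low values, the controls held about 18900000, 20500000 and 20200000 fragments, and the Smyd2 SMC-/- libraries about 17500000, 19900000 and 19700000. At these depths 1 fragment on a transcript of 2000 bases was worth 0.0257 to 0.0301 FPKM, and among the 10 genes counting limited Myocd most, at about 0 to 45 fragments, followed by Klf2 at about 88 to 150.

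Smyd2 itself was measured at 7.87, 3.1 and 3 FPKM in the controls and at 1.67, 0.4 and 0.8 FPKM in Smyd2 SMC-/- cells. Every Smyd2 SMC-/- library lay below every control, as the labels say. The difference was -1.48 ± 0.39 (log2 of FPKM + 1, SE), with an adjusted p of 0.105 in limma and 0.0189 once the replicate number entered limma as a block (the replicate block). Over the 13 alternative settings the difference ran from -2.21 to -1.10 and the adjusted p from 0.00126 to 0.305.

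The libraries of replicate 1 stood apart in both genotypes. Principal components 1 (50.2% of the variance) and 2 (33.1%) each set replicate 1 off from replicates 2 and 3 within each genotype and each set the genotypes apart within each replicate number. The gap was wider for replicate 1 on component 1 and for genotype on component 2. Across the genes tested, replicates 2 and 3 had a Spearman correlation of 0.992 in the controls and 0.989 in Smyd2 SMC-/- cells, whereas replicate 1 correlated with them at 0.930 and 0.934 in the former and at 0.920 and 0.925 in the latter. What set replicate 1 apart was not tested. Values that moved far with it are therefore also given without it. Nothing in the labels says whether the libraries of a genotype came from separate animals or cultures, so the p-values measure the spread among these libraries, which may be technical.

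The smooth muscle identity of the cells was checked on 7 marker genes. Their summed FPKM was 922, 821 and 814 in the controls and 263, 429 and 376 in Smyd2 SMC-/- cells. Acta2, encoding smooth muscle α-actin, was the most abundant and made up most of each sum, and the markers did not move as one. Acta2 lay below the controls without overlap (-1.55, limma adjusted p 0.00803). Tagln (-0.92), Cnn1 (-0.91), Smtn (-0.05) and Lmod1 (0.24) overlapped and were not called, with limma adjusted p-values of 0.496, 0.399, 0.9 and 0.817. With replicates 2 and 3 alone they were at -0.08, -0.07, 0.05 and 0.83, and Acta2 was called lower and Lmod1 higher. Acta2, Tagln, Smtn, Cnn1 and Lmod1 passed the minimum of 0.5 FPKM, but Myh11 (0.01 to 0.22 FPKM), the heavy chain that defines mature smooth muscle, and Des (0 to 0.22 FPKM) were near 0 in all 6 libraries.

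Markers of other cell types moved with replicate and with genotype. The 6 fibroblast markers summed to 539, 886 and 852 FPKM in the controls and to 1374, 1237 and 891 FPKM in Smyd2 SMC-/- cells. Col1a1 was the most abundant of them, and they did not move as one. Dpt ran from 65.5 to 143.88 FPKM in the controls and from 0.63 to 3.31 FPKM in Smyd2 SMC-/- cells (-5.28; limma adjusted p 0.00417). The other 5 were not called, with Pdgfra (-1.66) below the controls and Col1a1 (0.96) above without overlap, and Pi16 (-1.32), Dcn (0.53) and Lum (1.82) overlapping. Their limma adjusted p-values were 0.0601, 0.186, 0.304, 0.89 and 0.342. With replicates 2 and 3 alone Dpt, Pdgfra (-2.21) and Pi16 (-1.62) were called lower and Lum (2.57) higher, and leaving out Smyd2 SMC-/- replicate 1 was enough to call Pdgfra (-1.962) and Lum (2.957). Col1a1 was not called in either fit, at 0.49 and 0.617. Its difference ran from 0.49 to 1.29 over the 13 alternative settings. Dcn was at 13.88 and 25.59 FPKM in the replicate 1 libraries against 256.65 to 382.86 FPKM in the others. The 7 endothelial markers summed to between 1.53 and 5.4 FPKM, and they did not move as one. Kdr, the most abundant by mean, was above the controls without overlap (0.47 to 0.84 against 0.96 to 5.15 FPKM). Its difference was 1.16 (limma adjusted p 0.186), and with replicates 2 and 3 alone it was called higher (1.53, limma adjusted p 0.0026). Pecam1, too low to be tested, was below without overlap (0.56 to 0.92 against 0 to 0.18 FPKM). The others overlapped, with Cdh5 at 0 to 0.01 FPKM. Of the 5 macrophage markers, which summed to between 4.94 and 8.96 FPKM, Cd68 was the most abundant, and Ptprc and Adgre1 were at 0 to 0.02 FPKM. Csf1r was above the controls without overlap (0.48 to 0.58 against 1.14 to 1.66 FPKM), whereas Lyz2 overlapped. Their differences were 0.65 and -0.64, with limma adjusted p-values of 0.102 and 0.398. With replicates 2 and 3 alone Csf1r (0.60) was called higher and Lyz2 (-0.95) lower, with limma adjusted p-values of 0.0192 and 0.00294. The part of the fibroblast, endothelial and macrophage markers in the results that follow was not tested, and in RNA from whole cultures fewer cells of a type and less RNA per cell cannot be told apart.

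Differences were tested over the 12565 genes whose mean reached 0.5 FPKM, and 9 of the 10 members passed this minimum, all but Myocd. At an adjusted p of at most 0.05, limma called 0 of the 9 members, where 2.44% of all tested genes were called (152 or 1.21% lower and 154 or 1.23% higher in Smyd2 SMC-/-). At an unadjusted p under 0.05 limma picked 2 members, Srf and Elk3, where 20.3% of all genes were picked. With the replicate block limma called 1 member, Elk3, against 10.4% of all genes (719 or 5.72% lower and 593 or 4.72% higher). With replicates 2 and 3 alone it called 2, Srf and Elk3, against 29.0%. Groups of 3 libraries did not overlap for 3 of the 9 members, Srf and Elk3 below and Elk4 above the controls, which is 33.3% beside 28.1% of all tested genes. Within the same-numbered pairs, 3 members (Srf, Mkl1 and Elk3) were lower in Smyd2 SMC-/- in all 3 pairs, beside 29.3% of all tested genes, and 2 (Elk4 and Klf5) were higher, beside 25.8%. By these counts the 10 genes as a set lay near the background of the whole table.

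**Figure D1:**
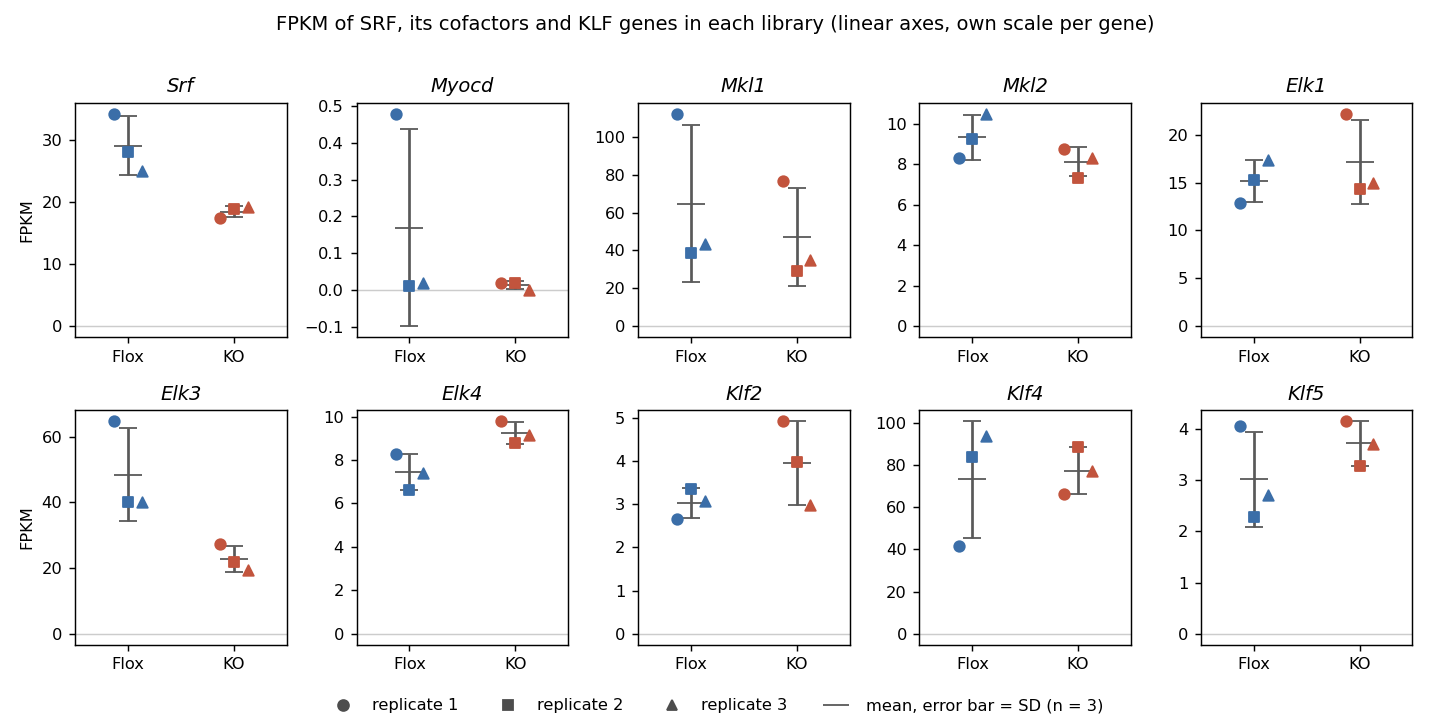
FPKM of the 10 genes in each library, on linear axes with a scale for each gene; points are libraries, with the symbol giving the replicate, and bars are the mean ± SD (n = 3 per genotype). Srf (24.97 to 34.28 FPKM in Flox, 17.46 to 19.15 in KO) and Elk3 (40.18 to 64.78 in Flox, 19.45 to 27.23 in KO) lie apart between the genotypes, Elk4 lies higher in KO, and the circles of replicate 1 stand well above the other symbols in both genotypes for Mkl1.

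The level of the 10 genes spanned a wide range in the control cells. By mean FPKM ± SD (n = 3) in Smyd2 fl/fl, the order was Klf4 (73.2 ± 27.6), Mkl1 (64.7 ± 41.2), Elk3 (48.4 ± 14.2), Srf (29.1 ± 4.75), Elk1 (15.2 ± 2.21), Mkl2 (9.34 ± 1.11), Elk4 (7.44 ± 0.826), Klf2 (3.03 ± 0.347), Klf5 (3.02 ± 0.929) and Myocd (0.17 ± 0.269). Klf4, Mkl1 and Elk3 were not separated from each other by their spread, nor were Mkl1 and Srf, Mkl2 and Elk4 or Klf2 and Klf5. Among the genes tested, Klf4 ranked 945 by mean FPKM over all 6 libraries and Mkl1 1376, while Klf5 ranked 9737. In Smyd2 SMC-/- cells Klf4 (77.4 ± 11.3 FPKM), Mkl1 (46.9 ± 25.8 FPKM) and Elk3 (22.9 ± 3.98 FPKM) kept the first places, and Elk3, Srf (18.5 ± 0.9 FPKM) and Elk1 (17.2 ± 4.38 FPKM) lay within each other's spread.

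Srf lies on mouse chromosome 17 (GRCm38, chr17:46548329-46556175, minus strand; NCBI Gene 20807). It is known to be a target of its own protein, and so its promoter is shown. The window holds the 250 bases before the transcription start in RefSeq (GRCm38.p6, chr17:46556163-46556412, minus strand), written 5′ to 3′ along the gene. Capitals mark matches to the CArG box and to CCGGAA, a sequence bound by ETS proteins such as the ELK factors, searched on both strands. Promoter windows were found for 8 of the 10 members, and those of Elk3 (chr10:93311160-93311409, minus strand) and of Elk4 (the first of its windows, chr1:132007370-132007619, plus strand) are printed beside it because these members lay without overlap on opposite sides of the controls.
Srf: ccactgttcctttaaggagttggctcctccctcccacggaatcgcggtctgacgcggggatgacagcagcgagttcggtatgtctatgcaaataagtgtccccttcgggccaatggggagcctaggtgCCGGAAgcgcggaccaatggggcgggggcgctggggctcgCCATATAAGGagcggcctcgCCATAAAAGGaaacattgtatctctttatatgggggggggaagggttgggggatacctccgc
Elk3: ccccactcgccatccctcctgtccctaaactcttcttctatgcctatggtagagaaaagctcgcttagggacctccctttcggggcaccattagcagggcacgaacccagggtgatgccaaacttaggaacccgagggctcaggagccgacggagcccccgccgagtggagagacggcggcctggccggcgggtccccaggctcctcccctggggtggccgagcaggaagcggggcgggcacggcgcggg
Elk4: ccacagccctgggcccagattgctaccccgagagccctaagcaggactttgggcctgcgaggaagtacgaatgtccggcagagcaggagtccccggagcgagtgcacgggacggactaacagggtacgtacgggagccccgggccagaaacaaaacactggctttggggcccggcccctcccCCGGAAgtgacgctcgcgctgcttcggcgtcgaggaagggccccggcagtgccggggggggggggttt
The Srf window holds 2 CArG boxes, at 82 to 73 and at 62 to 53 bases before the start, and CCGGAA at 122 to 117 bases. Elk3 has neither in this window, and Elk4 has CCGGAA at 68 to 63 bases before the start. The other windows of Elk4 hold neither motif. A CArG box was found before 1 of the 8 members with a window, Srf, and before 439 of 27025 genes with a promoter (1.62%). Windows with 2 or more were found for 5 genes (0.0185%), Srf and the ERK phosphatase gene Dusp5 among them. CCGGAA was found for 3 of the 8 members (Srf, Mkl2 and Elk4) and for 13.6% of all genes. The motifs do not overlap, and a match says only that these letters stand in the window.

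Srf was measured at 34.28, 28.01 and 24.97 FPKM in the controls and at 17.46, 18.84 and 19.15 FPKM in Smyd2 SMC-/- cells. All 3 Smyd2 SMC-/- libraries were below the lowest control, with a narrow spread, and the gap was widest in replicate 1, where the control was high and the Smyd2 SMC-/- library the lowest. The difference was -0.62 ± 0.15 (log2 of FPKM + 1, SE; 95% CI -0.97 to -0.26), or 0.652 of the control level on that scale. In limma the adjusted p was 0.0829, and with the replicate block 0.0555, both above the threshold. With a block of replicate 1 against replicates 2 and 3 it was 0.0203, below the threshold, where 20.3% of all tested genes were called. With replicates 2 and 3 alone the difference was -0.46 with a limma adjusted p of 0.0152, within a range of 0.0152 to 0.271 over the 13 alternative settings. The same-numbered pairs differed by -0.93, -0.55 and -0.37. About 769 to 1630 fragments stood behind each value.

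Myocardin, the coactivator that is most restricted to smooth and cardiac muscle, was close to absent from these cultures. Myocd (chromosome 11, GRCm38, chr11:65176561-65269989, minus strand) was measured at 0.48, 0.01 and 0.02 FPKM in the controls and at 0.02, 0.02 and 0 FPKM in Smyd2 SMC-/- cells. Only Smyd2 fl/fl replicate 1 stood above the rest, with about 45 fragments against 0 to 2 in the other 5 libraries, and the groups overlapped. A two-sided exact permutation test gave p = 0.6, where 0.1 is the smallest that 3 against 3 libraries allow. A difference in Myocd between the genotypes was not detectable at this depth in replicates 2 and 3.

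Mkl1, encoding MRTF-A (GRCm38, chr15:81012281-81190757, minus strand), was the main member of the family by FPKM. It was measured at 112.21, 38.57 and 43.39 FPKM in the controls and at 76.54, 29.37 and 34.82 FPKM in Smyd2 SMC-/- cells. Replicate 1 was 2.74 times the mean of replicates 2 and 3 in Smyd2 fl/fl and 2.38 times in Smyd2 SMC-/-, so that the groups overlapped, yet within each number the Smyd2 SMC-/- library was the lower. The pair differences were -0.55, -0.38 and -0.31 on the log2 scale. Without a block the difference was -0.41 ± 0.51 (95% CI -1.63 to 0.8), with a limma adjusted p of 0.714. Neither the replicate block (limma adjusted p 0.0613) nor replicates 2 and 3 alone (0.0657) gave a call. A block of replicate 1 against replicates 2 and 3, in which 20.3% of all genes were called, gave a limma adjusted p of 0.0447, over a range of 0.0447 to 0.944, and leaving out Smyd2 fl/fl replicate 1 turned the difference to 0.065, in a range of -0.82 to 0.07.

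Mkl2, encoding MRTF-B, was measured at 8.29, 9.22 and 10.5 FPKM in the controls and at 8.75, 7.33 and 8.3 FPKM in Smyd2 SMC-/- cells. The groups overlapped, and replicate 1 did not stand out as it did for Mkl1. The difference of Mkl2 was -0.18 ± 0.15 (95% CI -0.53 to 0.17), with a limma adjusted p of 0.566, and it ran from -0.30 with replicates 2 and 3 alone to -0.07 as TPM, with no call in any of the 13 alternative settings. Mkl1 made up 92.8%, 80.7% and 80.5% of the summed FPKM of Myocd, Mkl1 and Mkl2 in the controls and 89.7%, 80% and 80.8% in Smyd2 SMC-/- cells. These shares differed by replicate and not by genotype beyond the spread (84.6 ± 7.02% and 83.5 ± 5.41%, mean ± SD, n = 3).

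Among the ternary complex factors, Elk3 was the one with lower values in all Smyd2 SMC-/- libraries. Elk3, also known as Net, can repress SRF target genes and loses that activity when phosphorylated by ERK (GRCm38, chr10:93247414-93311135, minus strand; NCBI Gene 13713). It was measured at 64.78, 40.3 and 40.18 FPKM in the controls and at 27.23, 21.91 and 19.45 FPKM in Smyd2 SMC-/- cells. Replicate 1 was the highest library of each genotype, and all Smyd2 SMC-/- libraries lay below all controls. The difference was -1.03 ± 0.23 (log2 of FPKM + 1, SE; 95% CI -1.57 to -0.48), 0.491 of the control level. The limma adjusted p was 0.0726, and with the replicate block it was 0.0172 (95% CI -1.31 to -0.74). Replicates 2 and 3 alone gave -0.93 with a limma adjusted p of 0.000773, and over the 13 alternative settings the difference ran from -1.16 to -0.80 and the adjusted p from 0.000773 to 0.26. The same-numbered pairs differed by -1.22, -0.85 and -1.01.

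Elk4, also known as Sap1 (GRCm38, chr1:132007607-132032612, plus strand), lay on the other side. It was measured at 8.29, 6.64 and 7.4 FPKM in the controls and at 9.79, 8.76 and 9.17 FPKM in Smyd2 SMC-/- cells. The lowest Smyd2 SMC-/- library was above the highest control, by a small margin. The difference of 0.28 ± 0.14 (95% CI -0.05 to 0.61) did not pass the test, with a limma adjusted p of 0.313. All 3 pairs had the same sign (0.22, 0.35 and 0.28), and the difference ran from 0.21 to 0.42 over the 13 alternative settings.

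Elk1, an activator that responds to ERK, was measured at 12.92, 15.28 and 17.34 FPKM in the controls and at 22.21, 14.35 and 14.93 FPKM in Smyd2 SMC-/- cells. One library, Smyd2 SMC-/- replicate 1, was above all others, and the remaining values of the genotypes were interleaved. The difference was 0.15 ± 0.20 (95% CI -0.34 to 0.64), with a limma adjusted p of 0.747, and it turned to -0.14 with replicates 2 and 3 alone and to -0.040 without Smyd2 SMC-/- replicate 1, in a range of -0.14 to 0.28 over the 13 alternative settings.

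**Figure D2:**
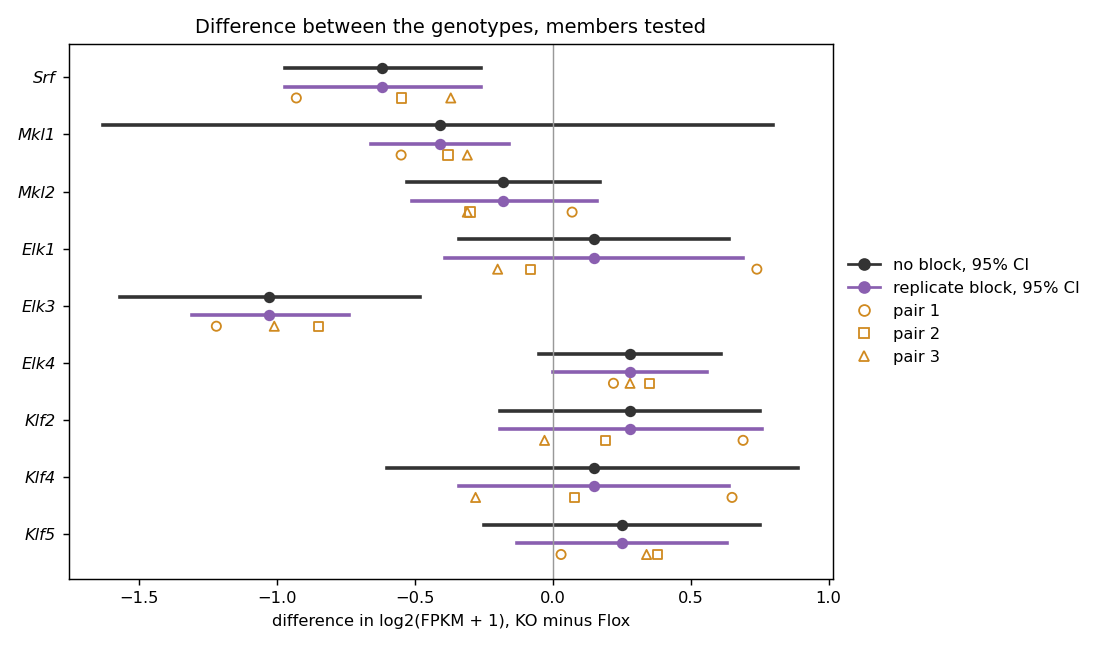
Difference in log2(FPKM + 1), Smyd2 SMC-/- minus Smyd2 fl/fl, for the 9 members tested, with the 95% CI without a block (dark) and with the replicate block (purple), and the difference of each same-numbered pair below (open symbols). The block narrows the interval of Mkl1 from -1.63 to 0.8 to -0.66 to -0.16 and that of Elk3 from -1.57 to -0.48 to -1.31 to -0.74, while that of Srf is -0.97 to -0.26 in both.

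The share of Elk3 in the ternary complex factor RNA did not overlap between the genotypes. Elk3 made up 75.3%, 64.8% and 61.9% of the summed FPKM of Elk1, Elk3 and Elk4 in the controls and 46%, 48.7% and 44.7% in Smyd2 SMC-/- cells. Elk3 was thus the majority in each control and below the sum of the other two in each Smyd2 SMC-/- library (67.3 ± 7.08% and 46.4 ± 2.04%, mean ± SD, n = 3), a gap of -20.9 percentage points that was -16.7 with replicates 2 and 3 alone. The share of Elk4 was 10.6 ± 0.883% in the controls and 19 ± 2.3% in Smyd2 SMC-/- cells, and that of Elk1 was 22.1 ± 6.22% and 34.6 ± 2.82%. The ratio of Elk3 to Elk4 was 7.81, 6.07 and 5.43 in the controls and 2.78, 2.5 and 2.12 in Smyd2 SMC-/- cells. Shares within a library do not depend on how the library was scaled, but a lower share of one gene raises those of the others. The 3 genes were summed after their values were seen, and an exact permutation test of 3 against 3 libraries cannot go below 0.1, so these shares are given as a description. The summed FPKM was 86, 62.2 and 64.9 in the controls, against 59.2, 45 and 43.5 in Smyd2 SMC-/- cells.

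**Figure D3:**
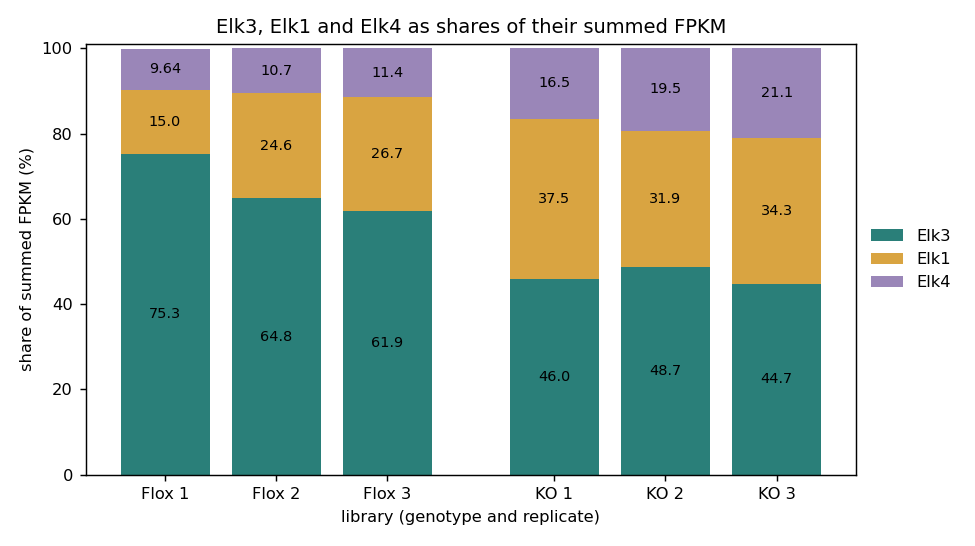
Shares of Elk3, Elk1 and Elk4 in their summed FPKM (percent) for each library, from 0 to the whole. Elk3 takes 61.9% to 75.3% in Flox and 44.7% to 48.7% in KO.

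Klf4, the KLF best known for repressing contractile genes when smooth muscle cells are modulated (GRCm38, chr4:55527143-55532466, minus strand), had the highest mean of the 10 genes. It was measured at 41.88, 83.83 and 93.98 FPKM in the controls and at 66.21, 88.79 and 77.09 FPKM in Smyd2 SMC-/- cells. The replicate 1 library was the lowest of each genotype and the groups overlapped. The difference was 0.15 ± 0.31 (95% CI -0.60 to 0.89), with a limma adjusted p of 0.845, and its sign rested on replicate 1: it was -0.10 with replicates 2 and 3 alone and -0.206 without Smyd2 fl/fl replicate 1, in a range of -0.21 to 0.37 over the 13 alternative settings. The interval leaves room for a moderate difference in either direction.

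Klf2 and Klf5 were expressed at a low level. Klf2, better known from endothelium, was measured at 2.66, 3.35 and 3.07 FPKM in the controls and at 4.91, 3.97 and 2.98 FPKM in Smyd2 SMC-/- cells. Klf5, a KLF linked to smooth muscle proliferation, was measured at 4.06, 2.28 and 2.71 FPKM in the controls and at 4.15, 3.28 and 3.71 FPKM in Smyd2 SMC-/- cells, in the same order. Both overlapped between the genotypes. The differences were 0.28 ± 0.20 for Klf2 and 0.25 ± 0.21 for Klf5, with limma adjusted p-values of 0.484 and 0.567. Over the 13 alternative settings Klf2 ran from 0.08, with replicates 2 and 3 alone, to 0.44, as TPM, and Klf5 from 0.12 to 0.43, and neither was called in any. Klf4 made up 86.2% to 94.2% of the summed FPKM of the 3 KLF genes in the 6 libraries.

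Klf4 was also set against Srf within each library, as a description chosen after the values were seen. The ratio of Klf4 to Srf FPKM was 1.22, 2.99 and 3.76 in the controls and 3.79, 4.71 and 4.03 in Smyd2 SMC-/- cells. The groups did not overlap, though the highest control and the lowest Smyd2 SMC-/- library were close (2.66 ± 1.3 and 4.18 ± 0.479, mean ± SD, n = 3). The ratios of Mkl1 to Srf (1.38 to 3.27 and 1.56 to 4.38) and of Elk3 to Srf (1.44 to 1.89 and 1.02 to 1.56) overlapped between the genotypes. The ratio of Klf4 to Mkl1 (0.373 to 2.17 and 0.865 to 3.02) overlapped as well. Within each replicate number, though, Mkl1 to Srf and Klf4 to Mkl1 were the higher in Smyd2 SMC-/- cells and Elk3 to Srf the lower. These ratios were not tested.

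Rescaling each library to the same sum, as TPM, moved the median difference of all genes by 0.11, from -0.02 to 0.095. All 9 members kept the sign of their difference on that scale. Srf was then at -0.51, Elk3 at -0.92, Mkl1 at -0.29 and Mkl2 at -0.07. The members above 0 lay higher as TPM, with Elk4 at 0.42, Klf2 at 0.44, Klf5 at 0.40, and Elk1 and Klf4 at 0.28 each, and none of the 9 was called on that scale.

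The genes around SRF were described with 7 lists that hold 90 genes, of which 72 were tested. Over these lists limma called 3 genes lower and 0 higher without a block, and with the replicate block 7 lower and 5 higher. The 3 were Acta2, Map2k2 and Csrp1, each from another list. These counts stand beside the shares of all tested genes given above, 1.21% lower without a block and 5.72% lower and 4.72% higher with it. With replicates 2 and 3 alone 13 of the 72 were lower and 19 higher, where 17.2% of all genes were lower and 11.9% higher. The medians of the lists moved with replicate 1 and are given with it and, after that, with replicates 2 and 3 alone, where the median of all genes was -0.06. Ranges given for a listed gene are over the 13 alternative settings.

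Of the 14 smooth muscle contractile genes, 8 were tested, with a median difference of -0.74 where the median of all genes was -0.02. That median rested on replicate 1, and it was -0.08 with replicates 2 and 3 alone, where 3 genes were called lower (Acta2, Actg2 and Cald1) and 2 higher (Mylk and Lmod1). Acta2 was measured at 761.48, 682.39 and 682.96 FPKM in the controls and at 200.95, 267.89 and 262.1 FPKM in Smyd2 SMC-/- cells. Acta2 fell by 1.55 ± 0.15 on the log2 scale, with an adjusted p of 0.00803 in limma, which became 0.0541 without Smyd2 fl/fl replicate 2, 0.0615 without Smyd2 fl/fl replicate 3 and 0.0533 without Smyd2 SMC-/- replicate 3. In these 3 fits the difference of Acta2 was -1.573, -1.573 and -1.605, in a range of -1.62 to -1.34. Cald1, encoding caldesmon, was called with the replicate block and not without one (-0.58; limma adjusted p 0.0757, and 0.0488 with the block, in a range of 0.0205 to 0.234). Actg2, the enteric smooth muscle actin, did not overlap but was not called (-0.97; limma adjusted p 0.0722, in a range of 0.00889 to 0.232), and as a gene of low FPKM it depended on the pseudocount, with -1.865 at 0.1 in place of 1, and -0.70 with replicates 2 and 3 alone. The values of Tagln were 80.49, 79.14 and 70.26 FPKM in the controls and 12.46, 87.3 and 57.12 FPKM in Smyd2 SMC-/- cells, so that only replicate 1 was far below its control, and the difference of -0.92 ran from -1.47 to -0.08. Not all of the list lay lower. Mylk, encoding myosin light chain kinase, was at 1.02, 3.62 and 3.75 FPKM in the controls and at 1.72, 7.14 and 9.68 FPKM in Smyd2 SMC-/- cells. It was the higher in each same-numbered pair (0.81; limma adjusted p 0.505, and 0.00335 with replicates 2 and 3 alone, in a range of 0.00335 to 0.847). The difference ran from 0.40, without Smyd2 fl/fl replicate 1, to 1.40, without Smyd2 SMC-/- replicate 1. Lmod1, encoding leiomodin, was at 2.71 to 3.28 FPKM in the controls and at 1.22, 5.44 and 6.02 FPKM in Smyd2 SMC-/- cells (0.24; limma adjusted p 0.817). With replicates 2 and 3 alone Lmod1 was at 0.83 with a limma adjusted p of 0.00335, without Smyd2 SMC-/- replicate 1 at 0.774 with 0.0489, and without Smyd2 SMC-/- replicate 3 at -0.057 with 0.978, in a range of 0.00335 to 0.996.

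All 14 actin-MRTF target genes were tested, and they did not share a direction. Their median difference was 0.02, and 0.26 with replicates 2 and 3 alone. Without overlap, 4 genes were below and 3 above the controls, where 15.0% and 13.1% of all tested genes were, and limma called 0 of them without a block and 2 lower with the replicate block. Those were Myh9, nonmuscle myosin heavy chain (-0.46; limma adjusted p 0.125, with the block 0.0472, range 0.0383 to 0.341), and Pdlim7, an actin-associated PDZ and LIM protein (-0.70; limma adjusted p 0.115, with the block 0.038, range 0.0179 to 0.341). Ankrd1 went the other way, with 114.48, 26.04 and 25.46 FPKM in the controls and 169.64, 184.46 and 258.14 FPKM in Smyd2 SMC-/- cells. The high control was replicate 1, and without it the difference of 2.21 became 2.914 with a limma adjusted p of 0.00749 in place of 0.103 (range 3.2e-05 to 0.316). Zyx, encoding zyxin, was the most abundant of the list (0.38; limma adjusted p 0.637). Its difference ran from 0.16 to 0.82, and was 0.700 with quantile normalization and 0.69 with replicates 2 and 3 alone, the 1 fit that called it (limma adjusted p 0.00739, in a range of 0.00739 to 0.92). Myl9, one of the 4, was at 10.39 FPKM in Smyd2 SMC-/- replicate 1 and at 68.47 to 93.12 FPKM in the other 5 libraries, and its difference of -1.04 ran from -1.48 to -0.03, the last with replicates 2 and 3 alone. In that fit 2 genes of the list were called lower, Myh9 and Pdlim7, and 5 higher, Ankrd1, Zyx, Cyr61 (0.83), Ctgf (1.204) and Fhl2 (0.52). Ctgf, encoding a matricellular protein, was at 19.76 FPKM in Smyd2 SMC-/- replicate 1, at 327.45 and 387.96 FPKM in the other two libraries of that genotype and at 137.7 to 161.75 FPKM in the controls, so that its difference was -0.11 with all libraries and 1.258 without that one (range -0.86 to 1.26). Fhl2 was at 0.17 with all libraries (range -0.15 to 0.73).

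Of the 9 immediate early genes that ternary complex factors are known to control, 7 were tested, with a median of -0.22 and, with replicates 2 and 3 alone, -0.05. Egr1 was measured at 20.02, 37.06 and 36.29 FPKM in the controls and at 47.92, 69.5 and 70.63 FPKM in Smyd2 SMC-/- cells. Its lowest Smyd2 SMC-/- value was above the highest control, and replicate 1 was the lowest of each genotype. The difference of 1.02 ± 0.28 had a limma adjusted p of 0.116, and of 0.0168 with the replicate block (range 0.000603 to 0.345), the 1 call of the list in that fit. Fos was also above the controls without overlap (0.70; limma adjusted p 0.217), in a range of 0.34, with replicates 2 and 3 alone, to 0.89, while Ier2 was below (-0.31, range -0.38 to -0.21; limma adjusted p 0.23). Mcl1, the most abundant by mean, differed by 0.07 (limma adjusted p 0.816), in a range of -0.05, with replicates 2 and 3 alone, to 0.19. In that fit the list had 2 higher calls, Egr1 and Nr4a1, and 0 lower, and Nr4a1 went from -0.26 with all libraries to 0.60 (range -0.53 to 0.60).

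All 17 genes of the ERK signalling list were tested, with a median of -0.01 (0.11 with replicates 2 and 3 alone) and 6 genes below the controls without overlap and 0 above, where 15.0% and 13.1% of all tested genes were below and above. Map2k2, encoding MEK2, was measured at 70.31, 74.74 and 70.11 FPKM in the controls and at 44.19, 44.94 and 46 FPKM in Smyd2 SMC-/- cells. The replicates lay close together in both genotypes. Map2k2 fell by 0.66 ± 0.11 on the log2 scale (limma adjusted p 0.0347), a call that was lost as TPM (limma adjusted p 0.0544), without Smyd2 fl/fl replicate 2 (0.17) or 3 (0.168) and without Smyd2 SMC-/- replicate 2 (0.156) or 3 (0.169). The difference of Map2k2 itself stayed in a range of -0.68 to -0.54. Map2k1, encoding the related kinase MEK1, was higher with the replicate block and not without one (0.46, range 0.30 to 0.59; limma adjusted p 0.258, with the block 0.0438, range 0.0278 to 0.524). Mapk3, encoding ERK1, was the most abundant (-0.31, range -0.35 to -0.19; limma adjusted p 0.186). The 8 feedback inhibitors of the list did not share a direction, and limma called 0 of them without a block or with the replicate block. Dusp6 (-0.87), Spred1 (-0.64) and Spred2 (-0.49) lay below the controls without overlap, with limma adjusted p-values of 0.147, 0.0791 and 0.178. Dusp5 (-0.45), Spry1 (0.19), Spry4 (0.20), Dusp4 (0.22) and Spry2 (0.61) overlapped between the genotypes, with limma adjusted p-values of 0.722, 0.881, 0.853, 0.62 and 0.277. With replicates 2 and 3 alone limma called 6 of the 8, Dusp6 (-0.56) and Spred1 (-0.48) lower and Spry2 (1.00), Spry4 (0.93), Dusp4 (0.52) and Spry1 (0.36) higher, but not Spred2 (-0.29) or Dusp5 (0.24). With Map2k2 and Map2k1 this made 3 lower and 5 higher calls of the list in that fit. The differences ran from -1.13 to -0.56 for Dusp6, -0.73 to -0.48 for Spred1, -0.58 to -0.29 for Spred2, -0.91 to 0.24 for Dusp5, -0.15 to 0.71 for Spry1, -0.13 to 0.93 for Spry4, 0.09 to 0.52 for Dusp4 and 0.38 to 1.00 for Spry2.

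Of the 11 other coactivators of SRF and myocardin, 10 were tested, with a median of -0.13 and, with replicates 2 and 3 alone, -0.24. Csrp1, a LIM protein that bridges SRF and GATA factors, was measured at 362.21, 376.07 and 324.94 FPKM in the controls and at 127.25, 180.17 and 143.75 FPKM in Smyd2 SMC-/- cells. No library of one genotype reached the other. Csrp1 fell by 1.24 ± 0.16 on the log2 scale (limma adjusted p 0.0183), and the call was lost without Smyd2 fl/fl replicate 2 (limma adjusted p 0.1) or 3 (0.0914) and without Smyd2 SMC-/- replicate 3 (0.114). In these 3 fits the difference of Csrp1 was -1.199, -1.305 and -1.219, in a range of -1.38 to -1.11. Gata6 was higher with the replicate block and not without one (0.67, range 0.42 to 1.01; limma adjusted p 0.338, with the block 0.0314, range 0.00192 to 0.663). Tgfb1i1 (-0.38) and Kdm3a (-0.38) were below the controls without overlap, with limma adjusted p-values of 0.136 and 0.29. Kdm3a was called with replicates 2 and 3 alone (-0.39; limma adjusted p 0.0382, in a range of 0.0382 to 0.572). That fit called 3 genes of the list lower, Csrp1, Kdm3a and Csrp2 (-0.55), and 1 higher, Gata6, and Csrp2 was at 0.10 with all libraries (range -0.55 to 0.34).

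The other repressors of SRF and myocardin and the other Klf genes held 0 calls in limma without a block. Of 11 such repressors 7 were tested, with a median of 0.09 (0.02 with replicates 2 and 3 alone), and the deacetylase gene Hdac2 was lower with the replicate block (-0.61; limma adjusted p 0.19, with the block 0.0362, range 0.00337 to 0.477), and it was the 1 call of that list with replicates 2 and 3 alone. Hdac4 (0.30) and Hdac5 (0.42) were above the controls without overlap, with limma adjusted p-values of 0.323 and 0.271, in ranges of 0.23 to 0.45 and 0.26 to 0.55. Of 14 other Klf genes 9 were tested, with a median of 0.29 that turned to -0.22 with replicates 2 and 3 alone, and limma with the replicate block called 2 higher. Klf15 was at 1.39, 2.77 and 2.09 FPKM in the controls and at 5.91, 6.88 and 13.38 FPKM in Smyd2 SMC-/- cells. All its Smyd2 SMC-/- values were above the controls. The difference was 1.60 ± 0.32 (limma adjusted p 0.0592, with the block 0.0295 and without Smyd2 SMC-/- replicate 1 0.0421, range 0.00825 to 0.189). Klf9 was the other (0.57; limma adjusted p 0.336, with the block 0.0457, range 0.0126 to 0.645), in a range of 0.27 to 0.76. Klf3 was the most abundant (0.34), and Klf13 (-0.38) and Klf16 (-0.50) were below the controls without overlap, with limma adjusted p-values of 0.435, 0.177 and 0.162. Klf3 ran from 0.18 to 0.50, and limma with replicates 2 and 3 alone called 4 of the list higher, Klf15 (1.64), Klf9 (0.46), Klf6 (0.39, range 0.21 to 0.45) and Klf3 (0.34), and 1 lower, Klf16 (-0.43).

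**Figure D4:**
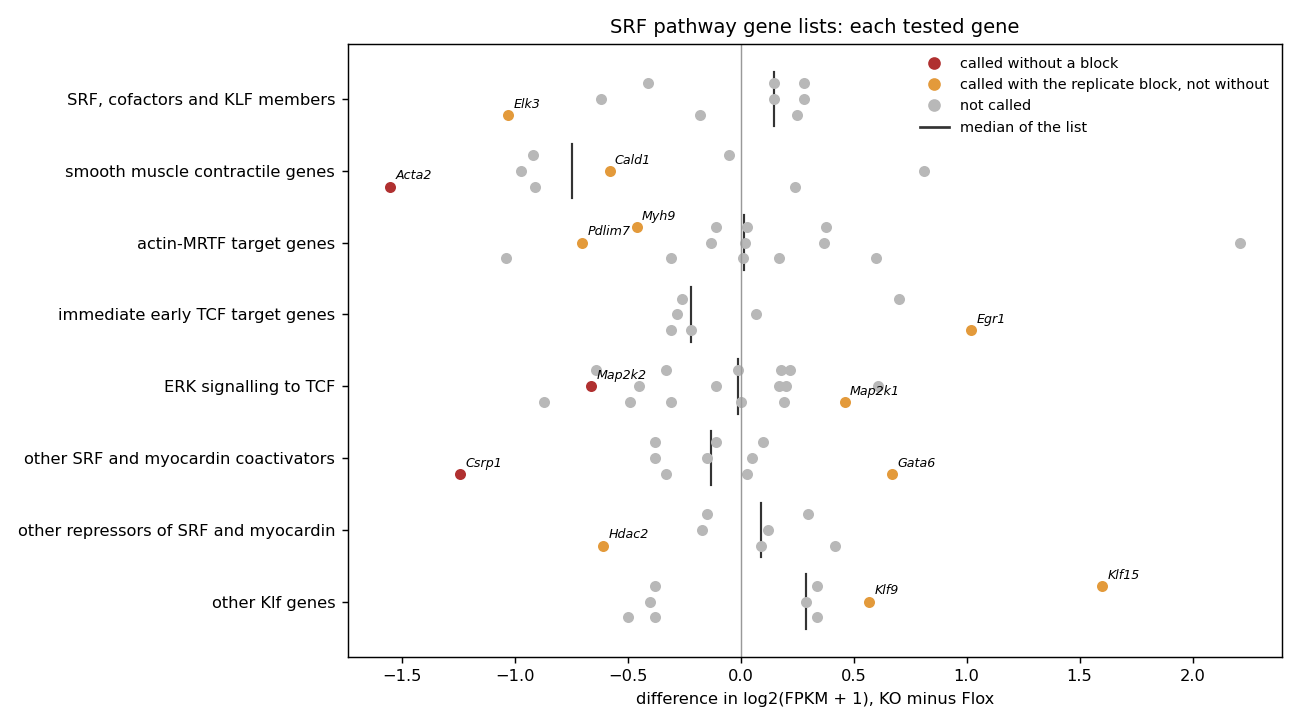
Difference in log2(FPKM + 1), Smyd2 SMC-/- minus Smyd2 fl/fl, of each tested member and listed gene, by list, with the median as a vertical line; red marks genes called in limma without a block and orange those called with the replicate block and not without it. The 3 red genes are Acta2 (-1.55), Map2k2 (-0.66) and Csrp1 (-1.24), and Elk3 (-1.03) is the 1 member in orange.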

How the data were processed

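The authors sequenced poly-A RNA, cleaned the reads (SOAPnuke), aligned them (HISAT, Bowtie2), quantified genes (RSEM) and deposited FPKM of 18112 genes for 6 libraries; the genome build and versions are not given in the sources used here. Genotype and replicate of each library come from its label. The 10 members and the gene lists were chosen with earlier results of these data known.

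Values were transformed as log2 of FPKM plus 1, the pseudocount. The 12565 genes whose mean reached 0.5 FPKM entered a limma fit (version 3.58.1, R 4.3.3; eBayes, robust, with a trend), with Benjamini-Hochberg adjustment over all of them, and were called at an adjusted p of at most 0.05. The fit was tested on simulated data. Replicate numbers come from the labels, and deviations from the group means correlated at 0.615, 0.460 and 0.527 between same-numbered libraries. The numbers were taken to pair them because each value is above 0.1, but replicates 2 and 3 correlated across numbers about as well (0.461 and 0.439), so that only replicate 1 is set apart by this check.

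Named were Smyd2, the members and, from each list, the genes called with or without the replicate block, the most abundant gene and up to 2 more of at least 1 FPKM with the largest differences among those without overlap. Tagln, Mylk, Lmod1, Ctgf, Cyr61, Fhl2, Nr4a1, Spry1, Spry2, Spry4, Dusp4, Spred2, Csrp2, Klf6, Myh11, Des, Dusp5 and the other markers were named after their values were seen. A further list is not reported here.

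Alternatives were a pseudocount of 0.1, no minimum, the replicate block, a block of replicate 1, replicates 2 and 3 alone, leaving out each library, TPM and quantile normalization. For the share of Elk3 and, with replicates 2 and 3 alone, the medians of the lists, both chosen after seeing the data, libraries were left out in the same way.

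Depth was estimated with numpy 2.4.6 from genes with 1 transcript of known length (4336), with 70.9% to 76.9% of low values within 0.15 of a whole fragment, where 30% would be by chance. Positions are from GENCODE M21 (GRCm38), matched by RefSeq transcript, and promoters from RefSeq (GRCm38.p6), matched by NCBI Gene number; they were not matched to the build of the authors. Python 3.11.15, pandas 2.3.3 and matplotlib 3.10.9 were used.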

Additional observations from a re-analysis of the deposited data

How the results depend on the processing

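Of 780 differences of named genes (60 genes under 13 alternatives), 662 kept their direction and side of the threshold. Cnn1, Smtn, Egr2 and the endothelial and macrophage markers were not among the 60. With the direction kept, 78 passed it only under the alternative and 11 no longer passed it, and 29 changed sign. Sign changes were counted only as such. Among them, Ctgf with replicates 2 and 3 alone and without KO replicate 1 also passed the threshold. So did Nr4a1 and Csrp2 with replicates 2 and 3 alone. The sign changes were Mkl1 without Flox replicate 1 (0.065), Elk1 with replicates 2 and 3 alone (-0.144) and without KO replicate 1 (-0.040), Klf4 with replicates 2 and 3 alone (-0.100) and without Flox replicate 1 (-0.206), Mcl1 with replicates 2 and 3 alone (-0.051) and without Flox replicate 1 (-0.004), Lmod1 without KO replicate 3 (-0.057), Ctgf with replicates 2 and 3 alone (1.204), as TPM (0.003) and without KO replicate 1 (1.258), Fhl2 without Flox replicate 2 (-0.073) or 3 (-0.154) and without KO replicate 1 (-0.047), Nr4a1 with replicates 2 and 3 alone (0.602), without Flox replicate 1 (0.206) and without KO replicate 1 (0.140), Csrp2 with replicates 2 and 3 alone (-0.552), without Flox replicate 1 (-0.103) and without KO replicate 1 (-0.351), Spry1 without Flox replicate 1 (-0.153) and without KO replicate 2 (-0.106) or 3 (-0.027), Spry4 without KO replicate 2 (-0.130), Dusp5 with replicates 2 and 3 alone (0.244) and without KO replicate 1 (0.241), and Dcn without Flox replicate 1 (-0.889) and without KO replicate 2 (-0.135) or 3 (-0.071). On leaving out 1 library these genes ran from -0.823 to 0.065 (Mkl1), -0.040 to 0.258 (Elk1), -0.206 to 0.368 (Klf4), -0.004 to 0.108 (Mcl1), -0.057 to 0.774 (Lmod1), -0.856 to 1.258 (Ctgf), -0.154 to 0.731 (Fhl2), -0.528 to 0.206 (Nr4a1), -0.351 to 0.339 (Csrp2), -0.153 to 0.709 (Spry1), -0.130 to 0.695 (Spry4), -0.905 to 0.241 (Dusp5) and -0.889 to 1.791 (Dcn). The cause was not tested. Srf kept its sign in all 13 (-0.72 to -0.46), as did Elk3 (-1.16 to -0.80).

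Over all genes limma called 152 lower and 154 higher. The replicate block gave 719 and 593, the block of replicate 1 against replicates 2 and 3 gave 1398 and 1152, replicates 2 and 3 alone gave 2156 and 1494, TPM gave 99 and 247, and leaving out 1 library gave 16 to 313 and 16 to 373. Of the members, 1 was lower with the replicate block, 3 with the block of replicate 1 and 2 with replicates 2 and 3 alone, against 0 without a block and 0 in each fit that left out 1 library; 0 were higher under any alternative. Of the listed genes, 3 lower and 0 higher became 7 and 5 with the replicate block, 15 and 10 with the block of replicate 1, 13 and 19 with replicates 2 and 3 alone, 2 and 1 as TPM, and 0 to 3 in both directions on leaving out 1 library. The replicate block changed the call of no other named gene than those for which its value is given. The lower share of Elk3 ran from -23.6 to -16.9 percentage points on leaving out 1 library. Depth limits Myocd, where 1 fragment is a large part of most values.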
